A study of Cicer arietinum with 12 samples.

Results

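In chickpea leaves, 69 genes were higher under drought than when well-watered in the genotype ICC8261. Their mean levels in the genotype ICC283 differed by at most 0.5 on the log2 ratio defined below, while single libraries could differ more. The 69 genes were picked by their measured values from the 27047 genes of the deposited tables whose identifier begins with LOC, out of 27234 features in all. A gene entered the set when its drought ratio R in ICC8261 was at least 1.25, every ICC8261 drought library lay above every ICC8261 well-watered library, the mean normalized count of the drought libraries was at least 20, and R in ICC283 lay between -0.5 and 0.5. R is the log2 ratio of the mean normalized counts, drought over well-watered, after 5 was added to each mean. Because these values chose the genes, the drought ratios of either genotype, and the contrast between them, are given as a description without a test.

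Leaf RNA came from Cicer arietinum plants, sampled once, at a stage that the labels name as shoot apical meristem. Well-watered soil was held at 80% of field capacity and drought-stressed soil at 20%, and each genotype was grown under both. The labels call ICC8261 drought tolerant and ICC283 drought sensitive, and no other treatment is named. Each of the 4 groups held 3 libraries, with 8910704 to 12192098 reads on genes per library. The labels do not tie a library to a pot, and the spread behind each p-value may be technical in part. None of the leaf or meristem marker symbols set for a check of the tissue was among the identifiers. The plastid-encoded genes ycf3, atpF, ndhA and ndhB, looked up afterwards, had at least 1409 CPM (TMM-scaled reads per 1000000 reads on genes) in all 12 libraries.

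The deposited sources disagree on the treatment of 4 libraries, and the set depends on which is followed. The reads that the authors' tables place in ICC283 well-watered library 3 and drought library 3 are exchanged in the count files, and so are those of ICC8261 well-watered library 1 and drought library 2. The selection rule follows the tables, and library numbers here are the tables' numbers. Normalized counts were scaled by the authors within each genotype, so normalized counts are used below within a genotype and CPM between genotypes. With the treatments of the count files only 3 genes met the rule, and 0 of them were among the 69. With only the 8 libraries on which the sources agree, 94 genes met it, 44 of them among the 69. All 69 genes had ICC8261 drought library 2 above both undisputed well-watered libraries, and well-watered library 1 below both undisputed drought libraries, which the rule itself requires.

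When soil dries, plants accumulate abscisic acid, a hormone that closes stomata and switches on genes for protective proteins and osmolytes through several families of transcription factors. Genotypes can differ in which genes respond and in the level at which a gene is held before the stress begins. A gene with the same level under both treatments can therefore be steadily high or steadily low, and the level in ICC283 is reported below for that reason. The reference gene table matched 63 of the 69 identifiers, 61 as protein-coding, 1 as a pseudogene (LOC101501483) and 1 as a long non-coding RNA (LOC101511878), and gives none of them a product name. They are therefore described by identifier, and no function is assigned to them. Just 1 gene with a proper symbol had values that meet the same limits. It was NAC5, named as a member of the NAC family of transcription factors, with R of 1.58 in ICC8261 and 0.21 in ICC283.

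NAC5 had normalized counts of 453, 414 and 451 in the well-watered ICC8261 libraries and 1563, 1578 and 831 in the drought libraries. In ICC283 it stood at 1173, 1331 and 977 when well-watered and at 1516, 1479.6 and 1036 under drought. On CPM the ICC283 libraries of both treatments, at 97.9 to 155 CPM, lay above all well-watered ICC8261 libraries, at 36 to 39.7 CPM. They overlapped with the drought-stressed ICC8261 libraries, at 73.1 to 139 CPM, and 2 of the ICC283 drought libraries, with 155 and 152 CPM, lay above all of those.

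Among the 489 LOC genes that met the ICC8261 side of the rule, the 69 make up the middle of the range in ICC283. There were 232 with R of 1.25 or more in ICC283 too, 155 with R from 0.5 to 1.25, 26 with R from -1.25 to -0.5 and 7 below -1.25. Members had a median R of 1.47 in ICC8261, from 1.25 to 3.81, which corresponds to a ratio of 2.39 to 14.0 with a median of 2.76 on the scale of the normalized count plus 5. R was at least 1.5 in 32 of them, at least 2 in 11 and at least 3 in 1. In ICC283 their median R was 0.13, from -0.49 to 0.49, with 46 genes above 0 and 22 below. The mean level under drought in ICC8261 ran from 25 to 6664 normalized counts, with a median of 205; it was under 100 in 20 genes and 1000 or more in 6.

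**Figure D1:**
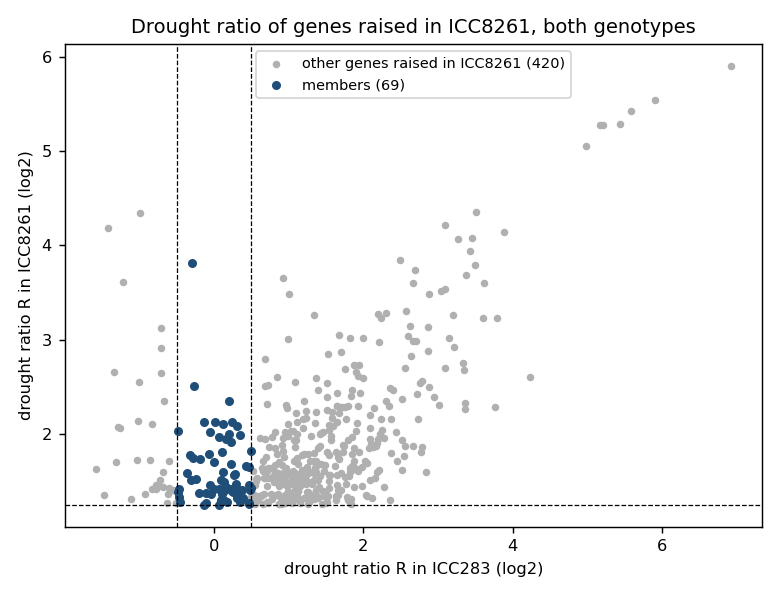
Drought ratio R (log2) of the 489 LOC genes that met the ICC8261 side of the rule, in ICC283 (horizontal axis) and ICC8261 (vertical axis). Blue points are the 69 members and grey points the others, dashed lines are the limits of the rule, and most grey points lie to the right, with R over 0.5 in ICC283.

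Genes at the edges of the set differed little from those just beyond it. The lowest R in ICC8261 among members was 1.254 in LOC101489011, 1.255 in LOC101495448 and 1.263 in LOC101500590, while LOC101506759, LOC101489793 and LOC101502516 were just short of the limit with 1.248, 1.238 and 1.233. At the upper limit in ICC283, LOC101497289, LOC101502158 and LOC101493874 were inside with 0.49, 0.49 and 0.48, and LOC101511445, LOC101512037 and LOC101505170 outside with 0.502, 0.509 and 0.511. At the lower limit, LOC101488652, LOC101508412 and LOC101506997 were inside with -0.49, -0.48 and -0.47. LOC101503529, LOC101488248 and LOC101488293 were outside with -0.51, -0.55 and -0.60.

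The gene with the largest drought ratio in ICC8261 was LOC101507211, with 11.4, 16.3 and 12.5 normalized counts in the well-watered libraries and 295, 244 and 219 under drought. Its ICC283 libraries read 82.6, 106 and 66.6 when well-watered and 3.94, 28.6 and 172 under drought. The ICC283 drought libraries therefore fell on both sides of the well-watered ones, and the near-zero R of -0.30 rests on drought library 3, one of the disputed ones. R in ICC283 was -2.08 without that library and -2.23 with only the undisputed libraries. For this gene the values of the undisputed libraries were opposite in direction between the genotypes.

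Both of the next genes in rank were scarce in ICC283 under either treatment. LOC101491264 had 11.4, 15.4 and 5.34 normalized counts in well-watered ICC8261 and 133, 67.7 and 54.0 under drought. On CPM it had at most 0.659 in any ICC283 library, against 4.75 to 11.6 in drought-stressed ICC8261. LOC101503480 had 6.22, 5.15 and 1.78 in well-watered ICC8261 and 46.8, 41.0 and 41.5 under drought. On CPM it had at most 0.879 in ICC283, against 3.61 to 4.07 in drought-stressed ICC8261. At such levels the ICC283 ratio says little, since the added 5 is of the same order as the normalized counts themselves, which were at most 6.34 and 8.45 in ICC283. The pseudogene LOC101501483 had no read in any of the 6 ICC283 libraries and 4 to 54 reads in the ICC8261 libraries; reads of a pseudogene can stem from a similar gene, which makes its values uncertain. Its normalized counts in ICC8261 were 24.9, 3.43 and 8.01 when well-watered and 32.4, 51.5 and 38.4 under drought, so its R of 0 in ICC283 reflects the lack of reads. Against a floor of 3 reads per library, its mean of 2.37 ± 1.65 reads per 1000000 without TMM scaling (SD, n = 6 libraries of both treatments) in ICC8261 was at least 7.05-fold higher than in ICC283. The floor corresponds to 0.246 to 0.337 reads per 1000000 and covers counting error only. The bound holds for the mean of the 6 ICC8261 libraries and takes no account of their spread. The lowest of them, with 4 reads, stood near the floor of 3 reads. The rule also required a minimum level in drought-stressed ICC8261, so the direction is part of the choice.

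LOC101494608 had the opposite layout. In ICC283 it read 188, 157 and 135 normalized counts when well-watered and 155, 165 and 168 under drought, whereas the well-watered ICC8261 libraries had 2.07, 1.72 and 1.78. Under drought the ICC8261 values were 64.8, 2.86 and 7.27, so its place in the set rests on drought library 1. Without that library R fell from 2.13 to 0.55, below the limit. The drought mean of ICC8261, 2.18 ± 3.01 CPM (SD, n = 3), was smaller than its own spread.

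In LOC101495981 and LOC105851882 the drought values of ICC8261 stood well clear of all other libraries. LOC101495981, the most abundant member under drought, read 1883, 1102 and 1563 normalized counts in well-watered ICC8261 and 8139, 5848 and 6004 under drought. On CPM its drought-stressed ICC8261 libraries held 515 to 709, against 95.9 to 165 when well-watered and 150 to 208 in the 6 ICC283 libraries. LOC105851882 went from 596, 507 and 571 normalized counts to 2597, 2250.0 and 2555 in ICC8261, with 198 to 226 CPM under drought against 43.7 to 112 CPM in the ICC283 libraries. LOC101504122 went from 20.7, 22.3 and 15.1 to 88.8, 120.2 and 91.4 normalized counts. Its ICC283 libraries, at 3.79 to 7.14 CPM, lay between well-watered ICC8261, at 1.31 to 1.94 CPM, and drought-stressed ICC8261, at 7.73 to 10.6 CPM, with little distance to the latter.

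The other abundant members stood in ICC283 at or between the levels of ICC8261. LOC101493722 had 2107, 1593 and 1915 normalized counts in well-watered ICC8261 and 5176, 5577 and 4185 under drought. On CPM its ICC283 libraries, at 288 to 517 when well-watered and 432 to 564 under drought, overlapped with drought-stressed ICC8261, at 368 to 491. LOC101497289 stood at 157 ± 21.3 and 425 ± 28.9 CPM in ICC8261 (SD, n = 3 each, well-watered first) and at 233 ± 68.9 and 330 ± 40.9 CPM in ICC283, an intermediate level. LOC101514075 stood at 42.1 ± 5.04 and 104 ± 29.9 CPM in ICC8261 and at 96 ± 32.7 and 110 ± 42.7 CPM in ICC283, which overlapped with the drought level. LOC101498003 had 53.3 ± 32.2 and 131 ± 20.5 CPM in ICC8261 and 100.1 ± 19.2 and 73.9 ± 36.6 CPM in ICC283, all ICC283 libraries below the lowest drought value of ICC8261. Its highest well-watered ICC8261 value, 1033 normalized counts, came from the disputed library 1, with 411 and 387 in the others, and R was 1.29 with that library and 1.89 without it.

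Some members with a large ratio varied widely between ICC283 libraries of the same treatment. LOC101508412 had 104, 147 and 97.9 normalized counts in well-watered ICC8261 and 505, 638 and 327 under drought. In ICC283 it had 412, 661 and 263 when well-watered and 354, 406 and 192 under drought. LOC101507623 had 234, 244 and 157 and then 903, 1110.2 and 572 in ICC8261. In ICC283 it read 1160.3, 457 and 255 when well-watered and 820.3, 741 and 601 under drought, and its R of 0.21 became 1.01 without well-watered library 1. LOC101497632 had 321, 379.6 and 109.9 under drought in ICC283 against 214, 208 and 212 when well-watered, so its R of 0.35 was 0.72 in the undisputed libraries. LOC101500629 likewise had a low drought library 3 in ICC283, 67.6 against 287 and 319.8, and LOC101496996 ranged only from 77.4 to 171 in ICC283 while it went from 114, 89.2 and 84.5 to 458, 539 and 279 in ICC8261.

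**Figure D2:**
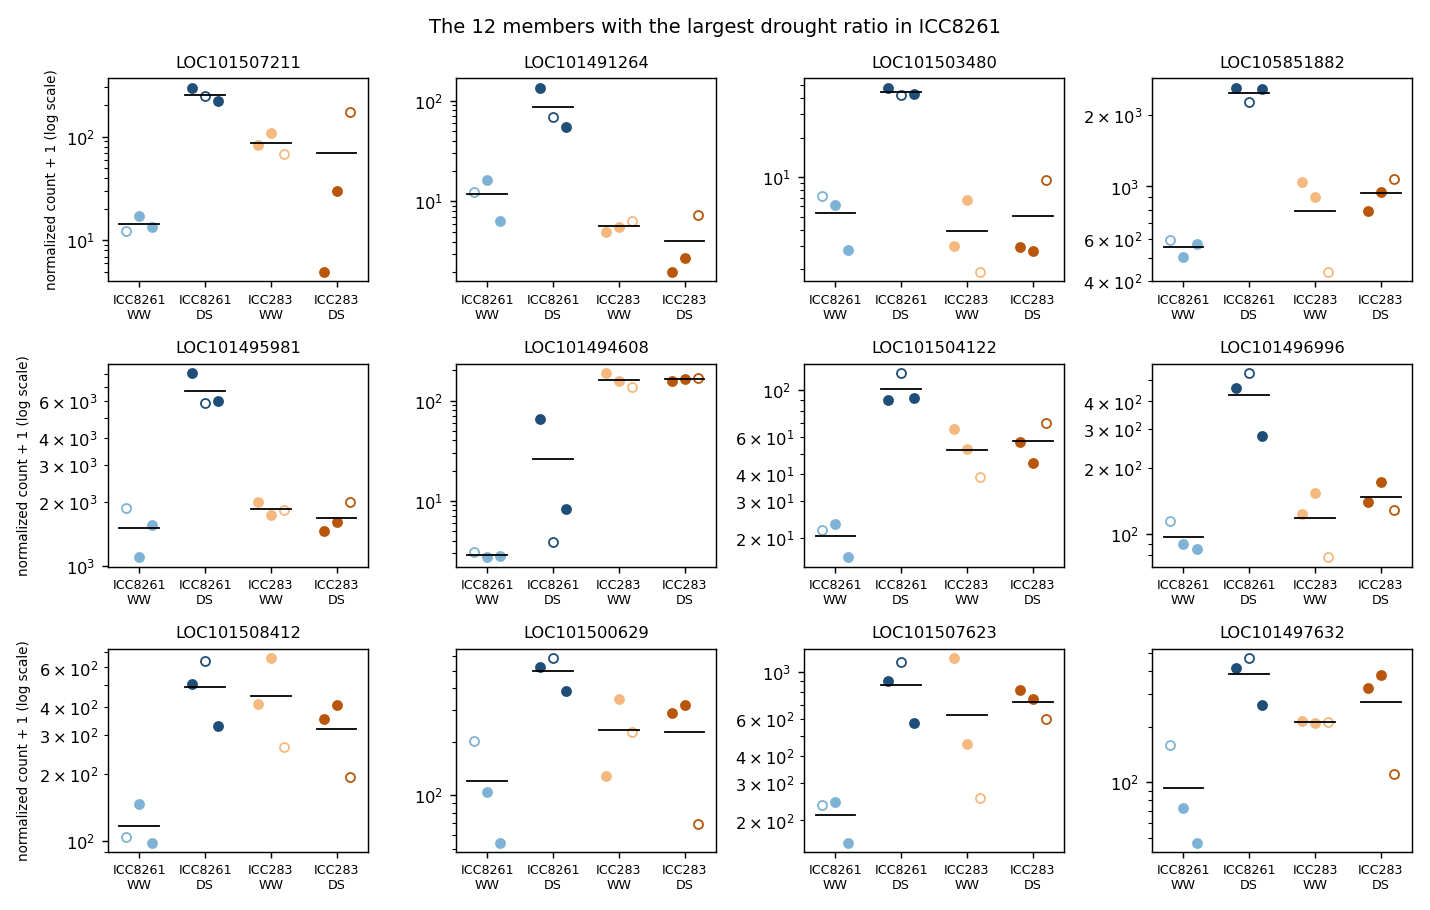
Normalized count plus 1 (log axis, its range set per gene) of the 12 members with the largest R in ICC8261, by genotype and treatment (WW well-watered, DS drought). Normalized counts are scaled within each genotype; points are libraries 1 to 3 from left to right, open points are the 4 libraries of disputed treatment and bars are group means; in LOC101507211 the open ICC283 drought point, 172, lies above its filled neighbours at 3.94 and 28.6.

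The ICC283 groups overlapped in 68 of the 69 genes. Every drought library lay above every well-watered one in 1 member, LOC101500590, while 21.7% of all 18592 tested genes had that order, and below in 0 members, against 23.4% of all genes; the limits on R in ICC283 restrict such separation. In ICC8261 the rule fixed complete separation for all 69, against 22.5% of all tested genes. Within the drought-stressed ICC8261 group, library 3 was lowest in 43 of the 69 genes and highest in 5, a count not made over all genes. The median coefficient of variation between libraries of a group was 23% and 22.1% in ICC8261 (well-watered and drought) and 31.8% and 31% in ICC283. The rule asks for separated libraries in ICC8261 alone, which favours genes with a small spread there. The same medians over all genes were not computed, so these values do not compare the genotypes.

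The disputed ICC283 libraries were often the lowest of their genotype. Well-watered library 3 or drought library 3 was the lowest of the 6 ICC283 libraries in 47 of the 69 genes. The same count over all tested genes was not made, so it cannot be told whether this is particular to the members. Non-unique alignments, as a share of all counted lines, also varied, from 44.1% to 50% in well-watered and 49.3% to 52.8% in drought-stressed ICC8261, and from 48.1% to 50.6% and 50.5% to 53.5% in ICC283, and their part in the ratios was not tested. When the 2 disputed ICC283 libraries were set aside, 56 of the 69 genes kept R in ICC283 within 0.5 of 0, 8 were lower and 5 higher. The lower ones were LOC101507211, LOC101515651 (-1.08), LOC101506997 (-0.93), LOC101497947 (-0.61), LOC101491971 (-0.60), LOC101489249 (-0.59), LOC101491264 (-0.55) and LOC101493924 (-0.54). The higher ones were LOC101502158 (0.94), LOC101499148 (0.77), LOC101497632 (0.72), LOC101511480 (0.53) and the non-coding RNA LOC101511878 (0.50). In ICC8261 the undisputed libraries gave a median R of 1.54, from 0.86 to 3.76, with 55 genes at 1.25 or more. Under the treatments of the count files the median R of the 69 genes in ICC8261 was 0.39, with 63 above 0 and 1 at 1.25 or more.

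**Figure D3:**
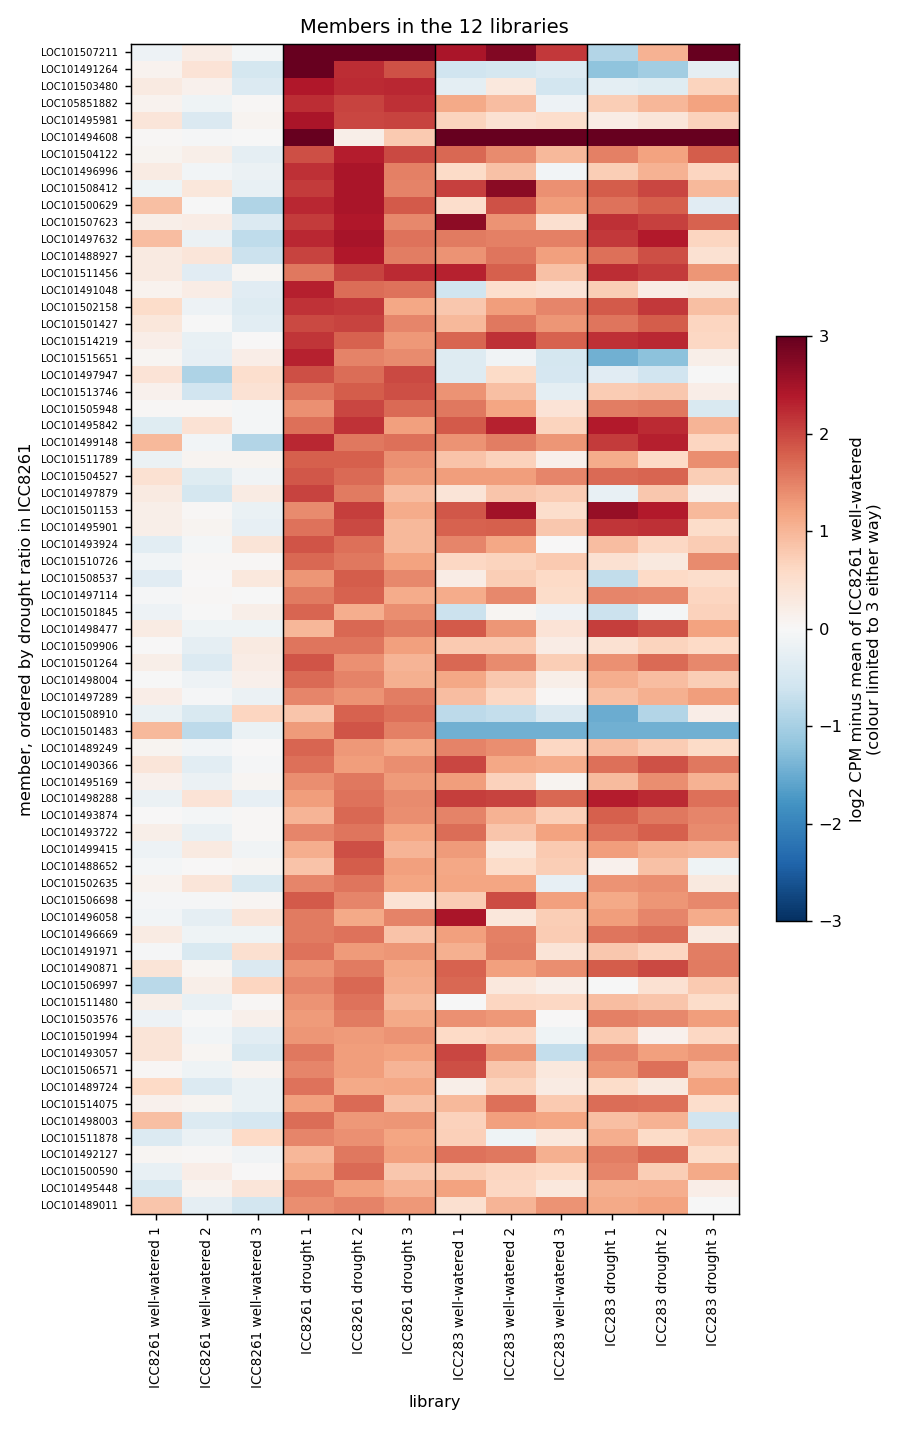
Level of each of the 69 members (rows, ordered by R in ICC8261) in each library (columns) as log2 CPM minus the mean of the well-watered ICC8261 libraries, with colour limited to 3 either way. The ICC283 columns of both treatments are red in most rows, with the median member 0.60 to 1.25 above well-watered ICC8261, and paler in library 3 of each ICC283 group (0.60 and 0.74).

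On a scale common to all 12 libraries, log2 of CPM plus 0.5, most members stood in ICC283 between the well-watered and the drought level of ICC8261. The ICC283 mean over both treatments lay between those levels in 50 genes, nearer to the drought level in 33 and nearer to the well-watered level in 17. It lay above the drought level in 12 genes and below the well-watered level in 7. Per library, the median member was 1.20, 1.16 and 0.60 above its well-watered ICC8261 mean in well-watered ICC283, and 1.25, 1.22 and 0.74 above it in drought-stressed ICC283. The drought-stressed ICC8261 libraries were 1.63, 1.68 and 1.30 above it. Over all tested genes the same medians stayed between -0.01 and 0.03. Members, unlike these, were chosen for drought values above well-watered values in ICC8261. The rise in ICC8261 is therefore part of the choice, and a baseline picked as the lower level can lift the ICC283 values.

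Most members, 45 of the 69, had a lower mean in ICC8261 than in ICC283 when well-watered and a higher mean under drought; 17 were lower in ICC8261 under both treatments and 7 higher under both. When well-watered, 62 of the 69 genes were lower in ICC8261, with a median difference of -0.99 (log2), and in 39 every ICC8261 library lay below every ICC283 library, against 17.4% of all tested genes. The reverse order held in 1 gene, the pseudogene LOC101501483, against 15.1% of all. Under drought, 52 genes were higher in ICC8261, with a median difference of 0.46. Every ICC8261 drought library lay above every ICC283 one in 27 genes (17% of all tested genes) and below in 2 (16.9%), LOC101494608 and LOC101498288. These differences share groups with the contrast that chose the genes and were not tested. In the 232 genes with R of 1.25 or more in both genotypes, the median difference was -0.39 when well-watered and -0.42 under drought. The limits on R bear on how far this difference moves with treatment, in members and in the 232 genes alike. The contrast between these sets is therefore a description only.

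The average genotype difference over both treatments does not involve the drought contrasts that chose the genes, and it was tested with edgeR's quasi-likelihood test over all 18592 genes that passed the filter on low counts. All 69 members passed that filter, 63 of them through the libraries of either genotype. LOC101491264, LOC101501483, LOC101501845, LOC101503480 and LOC101508910 passed it through ICC8261 only and LOC101494608 through ICC283 only; their choice bears on the direction of this contrast, and their values are given as a description without p. At an adjusted p of 0.05, 7 members were higher in ICC8261, 10.1% of the 69 against 10.5% of all tested genes, a share near the background, and 4 of these 7 passed the filter through ICC8261 only. In the other direction 14 members were lower in ICC8261, 20.3% against 10.3% of all genes; 1 of the 14 passed the filter through ICC283 only. That count was 8 without ICC283 drought library 2, with 7.25% of all genes called lower in the same fit, and 25 without ICC283 well-watered library 3, with 16.9% of all genes. The median difference over members was -0.30 on the log2 scale, against 0.02 over all tested genes, and 46 of 69 members were below 0, against 48.4% of all genes. The minimum level that the rule asks of drought-stressed ICC8261 leaves out genes that are scarce there, which touches this contrast as well. A lower level in ICC8261 was not particular to the members. The 232 genes with R of 1.25 or more in both genotypes had median differences of -0.39 when well-watered and -0.42 under drought. Those 2 medians are on log2 of CPM plus 0.5, and the share of the 232 genes called was not counted.

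The largest difference among members lower in ICC8261 was that of LOC101494608, -4.76 ± 0.56 (log2 difference ± SE), with 16.3 ± 2.96 and 16.7 ± 0.835 CPM in ICC283 and 0.162 ± 0.0173 CPM in well-watered ICC8261. LOC101498288 differed by -1.33 ± 0.16 (edgeR adjusted p = 2.3e-04), with 4.34 ± 1.29 and 12.4 ± 1.68 CPM in ICC8261 against 17.7 ± 2.25 and 19.9 ± 4.89 CPM in ICC283 (SD, n = 3 each, well-watered first). Even its drought level in ICC8261 thus stayed below the well-watered mean of ICC283. LOC101490871 (-1.11 ± 0.21), LOC101514219 (-1.11 ± 0.28), LOC101501153 (-1.20 ± 0.35) and LOC101495842 (-0.99 ± 0.31) were also lower. LOC101501153 (edgeR adjusted p = 0.0335) lost its call without any 1 of the 8 undisputed libraries (adjusted p = 0.0633 to 0.0781). LOC101495842 (edgeR adjusted p = 0.0429) lost it without any of those or without ICC8261 well-watered library 1 (adjusted p = 0.0503 to 0.1). In the smaller differences, LOC101493722 differed by -0.71 ± 0.14, with 163 ± 23.1 CPM in well-watered ICC8261 against 393 ± 116 CPM in well-watered ICC283. Under drought it had 437 ± 62.6 against 499 ± 66.4 CPM, and the libraries of the genotypes overlapped.

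Among the members higher in ICC8261, LOC101491264 differed by 2.78 ± 0.43, with 0.935 ± 0.444 and 7.44 ± 3.65 CPM in ICC8261 against 0.475 ± 0.0631 and 0.312 ± 0.303 CPM in ICC283. LOC101515651 differed by 1.49 ± 0.28 and LOC101497947 by 1.29 ± 0.29 (edgeR adjusted p = 0.004 and 0.0088). The former had 7.98 ± 1.29 and 28.6 ± 10.6 CPM in ICC8261 and 6.20 ± 1.05 and 4.91 ± 3.56 CPM in ICC283. Its well-watered libraries overlapped between the genotypes. The latter had 3.93 ± 1.99 and 14.4 ± 1.63 CPM in ICC8261 and 3.48 ± 1.75 and 2.82 ± 0.653 CPM in ICC283, so the groups overlapped when well-watered. LOC101508910 (2.11 ± 0.54) and LOC101503480 (1.82 ± 0.50) had means under 0.5 CPM in ICC283. LOC101495981, the most abundant member under drought, differed by 0.63 ± 0.14 (edgeR adjusted p = 0.00916). When well-watered it was lower in ICC8261 than in ICC283, 132 ± 34.6 against 190 ± 15.2 CPM. Under drought it was higher, 584 ± 109 against 175 ± 30.1 CPM. Its positive average thus rests on the drought-stressed ICC8261 libraries, whose rise the rule required. LOC101501483, without reads in ICC283, was the remaining one, and its lower bound of 7.05-fold is given above.

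Treatment labels do not move a library from one genotype to the other, yet they change the spread within groups and with it the calls. With the treatments of the count files the test called 3 members higher and 1 lower in ICC8261, against 7 and 14 with those of the tables. Over all genes that fit called 1.67% higher and 2.3% lower, so calls dropped among all genes and not among the members alone. The 4 were LOC101501483, LOC101491264 and LOC101515651, higher, and LOC101494608, lower. Of these, LOC101515651 alone passed the filter through the libraries of either genotype. The calls of the others carry the limit given above and are listed as a description. With only the 8 undisputed libraries the test called 8 members higher and 34 lower, with 16.7% and 16.3% of all genes.

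**Figure D4:**
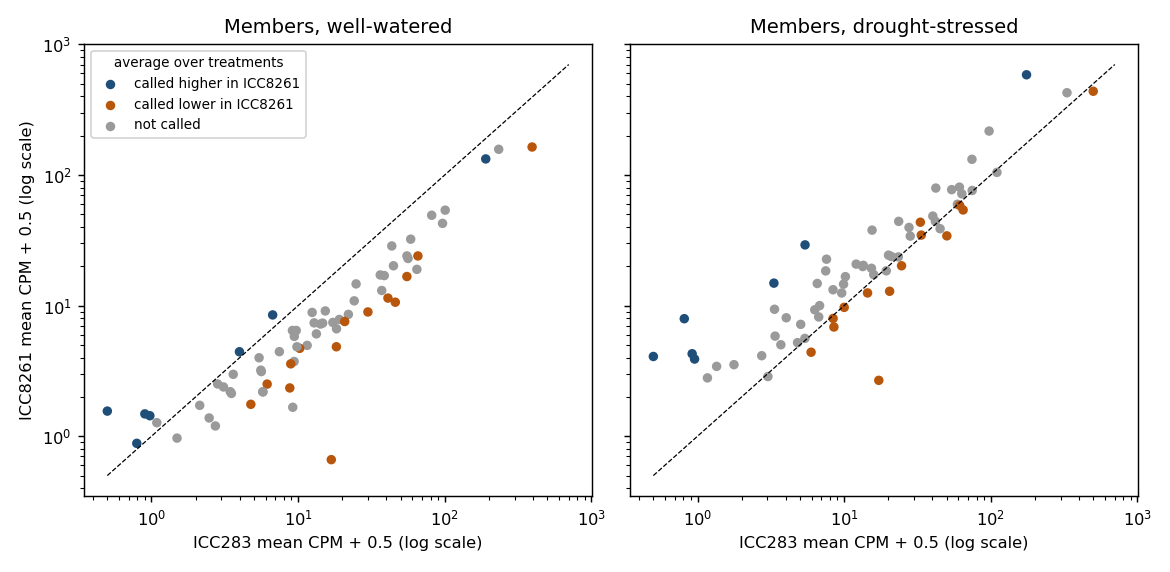
Mean CPM plus 0.5 (log axes, n = 3 libraries per mean) of the 69 members in ICC283 and ICC8261, well-watered on the left and drought-stressed on the right, coloured by the edgeR call on the average over treatments. On the left 62 genes are lower in ICC8261 on the log2 scale and most points lie below the dashed line of equal level; on the right 52 are higher.

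Few members lay close to another member in the gene order, a count not set against that of other genes. Of the 63 placed in the reference gene order (assembly Cicar.CDCFrontier_v2.0), 2 lay within 5 genes of another member, LOC101500629 and LOC101501264, which are 2 places apart.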

How the data were processed

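Leaf RNA-seq of 12 chickpea libraries, 3 per genotype and treatment, was analysed from deposited files. The authors deposited whole-number counts per gene (HTSeq lines left out here) and, per the file headers, DESeq2 tables with a normalized count per library, entered as a signal and scaled within each genotype. Dividing each column by its smallest value above 0 gave whole reads for 100% of values (tolerance 0.02), equal to 1 count file each. Per the submitters' processing notes, TopHat2 2.1.1, Cufflinks 2.0.2, Trimmomatic, HTSeq, DESeq2 and edgeR were used; the sources used here name no build, annotation or strand setting, so overlapping or near-identical genes may share reads.

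The main test was edgeR's (version 4.0.16, R 4.3.3) on reads under the tables' labels, with filterByExpr at a minimum count of 10 and total of 15, TMM scaling, 4 group means, robust glmQLFit, two-sided glmQLFTest, Benjamini-Hochberg adjustment over all genes, calls at 0.05. SE is the absolute log2 difference over the square root of F. CPM are TMM-scaled. Genes were named by largest R, highest drought level, largest called genotype difference and nearness to a limit. Members and lists were chosen with earlier results of these data known. Same-numbered libraries did not all deviate together, so numbers were not used as pairs. The reference table (Cicar.CDCFrontier_v2.0) matched 24242 features by symbol; product classes and promoter motifs were planned and could not be made without product names and sequences. Alternatives are given in the closing section.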

Additional observations from a re-analysis of the deposited data

How the results depend on the processing

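The rule gave 69 genes, and 58 to 99 when each library was left out in turn. It gave 145 with an ICC8261 limit of 1, 32 with a limit of 1.5, 38 with an ICC283 window of 0.25, and 3 with the treatments of the count files; the pseudocount, the minimum level, the separation, TMM-scaled CPM and the 8 undisputed libraries gave 55 to 94. Members called higher in ICC8261 on the genotype average (7) were 5 to 8 without single libraries, with 5.85% to 16.5% of all genes. They were 3 with the count files' treatments (1.67% of all genes) and 2 with genotype alone in the model (1.94% of all genes). Members called lower (14) were 8 to 25 without single libraries, with 6.61% to 16.9% of all genes. They were 1 with the count files' treatments (2.3% of all genes), 1 with genotype alone (2.71%) and 34 in the 8 undisputed libraries (16.3%). Of the counts of members called lower without single libraries, 25 came without ICC283 well-watered library 3 and 8 without ICC283 drought library 2. The count was 9 without ICC283 well-watered library 1, ICC283 drought library 1, ICC8261 well-watered library 2 or 3, or ICC8261 drought library 3. Those fits with 9 called 6.61% to 7.86% of all genes lower. DESeq2 1.42.0 called 8 members higher and 18 lower, with 9.12% and 8.93% of all genes. The replicate block called 9 and 20, with 12.7% and 11% of all genes (pairing check: correlations of same-numbered libraries from -0.12 to 0.26). For the 12 named genes, the 6 with the largest difference in each direction, 43 of 240 alternative values missed the threshold and 0 changed sign. They were picked for large called differences in the same libraries, and some passed the filter through 1 genotype only. A change of sign was therefore unlikely from the start. The alternatives planned for promoter motifs were not run, as no promoter sequence was at hand. Members with few reads in ICC283 have imprecise ratios there.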
